A study of Mus musculus with 36 samples.

Results

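The copine family was followed through the cerebellum and hippocampus of mice that had lost none, 1 or both *Pogz* alleles in the nervous system. The family comprised 9 genes, *Cpne1* to *Cpne9*, of the 24421 genes listed. *Cpne4* was selected on its measured change with *Pogz* loss in these same cerebellar and hippocampal counts, so its response is described below without a test. The 8 paralogs entered by name. RNA came from 18 adult C57Bl/6 mice, each of which gave both tissues, with 3 males and 3 females per genotype. Control mice were *Pogzfl/fl* without Cre and kept 2 intact alleles. *Pogz* cKO+/- mice were NesCre/+; *Pogzfl/+* and kept 1, and *Pogz* cKO-/- mice were NesCre/+; *Pogzfl/fl* and kept 0. The Nestin promoter drives Cre in neural progenitors, so that deletion reaches the neurons and glia that descend from them and not 1 region or cell type. The controls were littermates that carried floxed alleles and no Cre, so that in comparisons that include controls effects of Cre and of the deletion cannot be told apart. Both conditional knockout genotypes carried Cre.

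Copines are cytosolic proteins with a pair of C2 domains, which bind phospholipids when calcium is present, followed by a domain related to the A domain of von Willebrand factor, which binds other proteins. On a calcium signal they move to the plasma membrane and carry their partners with them. CPNE6, the neuronal copine, acts at dendritic spines of forebrain neurons, where it works through the GTPase RAC1, whereas CPNE1 and CPNE3 are found in most tissues. POGZ, the deleted protein, is a zinc-finger protein of heterochromatin.

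Cerebellar libraries held 21421850 to 32544929 gene counts, and hippocampal libraries 17609321 to 45544188. Levels are in CPM, the counts of a gene scaled to a common library size, and 3 counts corresponded to at most 0.14 CPM in the cerebellum and 0.17 CPM in the hippocampus. *Pogz* itself was lower in every cKO-/- library than in every control in both tissues, with log2 changes per allele lost of -0.30 (cerebellum) and -0.28 (hippocampus). Only the floxed exons are deleted, so counts over the whole gene can still hold reads from the remaining exons. For the protein, the study reports efficient deletion in the brain by immunostaining and western blots. Marker genes matched the labelled tissues. *Gabra6*, a granule cell receptor subunit, lay between 490 and 1086 CPM in the cerebellum, and *Neurod6*, a factor of pyramidal neurons, between 139.9 and 246 CPM in the hippocampus and between 6.22 and 18.5 CPM in the cerebellum. Several libraries stood apart. The hippocampal library of cKO-/- animal Sample_1160 was left out of the fits, and its values are given beside the others. The study's reporting summary mentions an outlying RNA sample that was excluded, without naming it. The hippocampal library of control animal Sample_1129 held cerebellar markers (346 CPM over 8 genes, against 6.17 to 14.9 CPM in the other 17). Summed midbrain markers were above every control in the cerebellar libraries of cKO-/- animals Sample_936, Sample_1379 and Sample_1385 and cKO+/- animals Sample_933 and Sample_1433, of which Sample_1379, Sample_1385 and Sample_1433 had a midbrain score (mean log2 CPM of 10 genes) above 0. Choroid plexus markers were high in those of animals Sample_933, Sample_936 and Sample_1433, and in the hippocampal libraries of animals Sample_1129, Sample_1170, Sample_1189, Sample_1219 and Sample_1385 (678 to 5080 CPM, against 17.7 to 161 CPM in the others). Granule cell markers were below every control in the cerebellar libraries of animals Sample_936, Sample_1371, Sample_1379, Sample_1385 and Sample_1433. The 6 controls were numbered Sample_1129 to Sample_1192. A wider range, Sample_1120 to Sample_1219, is called the controls' range below, and its ends are cKO+/- animal Sample_1120 and cKO-/- animal Sample_1219. Of the 12 conditional knockouts, 7 had numbers outside this wider range.

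The members lie on 8 chromosomes (GRCm38 coordinates of the count tables), *Cpne2* and *Cpne7* sharing chromosome 8. *Cpne4* is the longest, at chr9:104569788-105034544 on the plus strand, with 464757 bases of which 3654 are exonic. *Cpne6*, at chr14:55510448-55517431, spans 6984 bases. *Cpne9* lies at chr6:113282307-113305571, *Cpne2* at chr8:94533028-94570529, *Cpne8* at chr15:90487481-90679388 and *Cpne5* at chr17:29156521-29237790. Over their coding sequences, taken from GENCODE vM1 transcripts and aligned end to end, *Cpne4* was 76.2% identical to *Cpne7* and between 72.4% and 73.5% identical to the other members. No stretch of 43 bases, the read length, was shared between transcripts of any 2 members, so that a read matching 1 copine exactly matched no other. Exons of *Cpne1* share 229 of 3520 bases with *Rbm12* on the same strand, and 40.6% of its 43-base windows occur in transcripts of 2 other genes, so counts of *Cpne1* are uncertain. For *Cpne2*, *Cpne4*, *Cpne5*, *Cpne6* and *Cpne7* 0 windows were shared with any gene, and for *Cpne3*, *Cpne8* and *Cpne9* between 0.256% and 3.01%.

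The 250 bases before the start sites are shown for *Cpne4* and for the 2 paralogs that rose in the cerebellum, to show what their starts have in common. Sequences are from RefSeq (GRCm38.p6), 5′ to 3′ on the gene's strand, with CpG dinucleotides in capitals. *Cpne4* has 2 annotated starts 18403 bases apart.
Cpne4, upstream start (chr9:104569405-104569654, +): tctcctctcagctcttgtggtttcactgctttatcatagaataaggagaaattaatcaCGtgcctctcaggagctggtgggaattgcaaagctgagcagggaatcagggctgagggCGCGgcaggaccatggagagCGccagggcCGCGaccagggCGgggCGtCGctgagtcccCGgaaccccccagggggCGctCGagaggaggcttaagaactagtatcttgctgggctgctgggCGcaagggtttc
Cpne4, downstream start (chr9:104587808-104588057, +): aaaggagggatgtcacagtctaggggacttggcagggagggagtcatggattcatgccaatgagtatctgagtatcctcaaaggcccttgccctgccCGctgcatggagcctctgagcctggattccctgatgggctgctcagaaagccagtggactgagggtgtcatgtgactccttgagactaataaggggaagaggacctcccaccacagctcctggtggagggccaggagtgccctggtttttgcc
Cpne9 (chr6:113282057-113282306, +): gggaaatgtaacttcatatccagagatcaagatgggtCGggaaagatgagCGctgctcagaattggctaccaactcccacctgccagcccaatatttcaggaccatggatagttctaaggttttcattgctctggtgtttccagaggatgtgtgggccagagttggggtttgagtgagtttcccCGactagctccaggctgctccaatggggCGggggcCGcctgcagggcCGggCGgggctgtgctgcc
Cpne2 (chr8:94532778-94533027, +): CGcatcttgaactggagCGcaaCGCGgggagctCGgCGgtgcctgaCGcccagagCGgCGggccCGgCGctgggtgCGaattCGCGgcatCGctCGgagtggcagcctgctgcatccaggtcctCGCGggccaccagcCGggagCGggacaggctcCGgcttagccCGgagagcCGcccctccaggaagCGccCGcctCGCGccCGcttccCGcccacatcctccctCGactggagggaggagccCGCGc
The upstream start of *Cpne4* held 13 CpG dinucleotides and the downstream start held 1, against a median of 6 over the 32817 promoter windows of this length. *Cpne9* held 7 and *Cpne2* held 32, more than or as many as 57.0% and 96.0% of all windows. The GC box GGGCGG, on either strand, occurred at the upstream start of *Cpne4*, at *Cpne9* and at *Cpne2*, and in 32.7% of all windows. The E box CACGTG occurred at the upstream start of *Cpne4* and not at *Cpne9* or *Cpne2*, and in 6.02% of all windows. The CCAAT box CCAAT occurred at the downstream start of *Cpne4* and at *Cpne9*, and in 33.8% of all windows. None of the 4 windows held the TATA box TATAAA, which 12.4% of all windows held. Gene counts do not tell the 2 starts of *Cpne4* apart.

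To ask how the family is used in the 2 tissues without *Pogz* loss, levels per exon length were first compared among the controls. The hippocampus was dominated by *Cpne6*, at 277 ± 20.8 CPM per kilobase (SD, n = 6), followed by *Cpne7* at 97.2 ± 42.4 and *Cpne4* at 40.7 ± 5.74. *Cpne1* (14.3 ± 1.04) and *Cpne2* (12.6 ± 4.49) came next and did not differ beyond their spread, and neither did *Cpne9* (7.44 ± 2.32), *Cpne8* (7.17 ± 0.740) and *Cpne5* (6.16 ± 0.313). *Cpne3* was lowest, at 3.51 ± 0.389. The cerebellum had another order. *Cpne9* led, at 21.8 ± 3.64 CPM per kilobase, then *Cpne1* (17.3 ± 1.65) and *Cpne2* (15.1 ± 1.08), then *Cpne3* (5.68 ± 0.484), *Cpne8* (3.06 ± 0.480) and *Cpne6* (1.77 ± 0.496). *Cpne4* was sparse there, at 0.441 ± 0.202 CPM per kilobase, and *Cpne7* (0.0562 ± 0.0442) and *Cpne5* (0.0517 ± 0.0350) lay near the limit of detection. Summed per kilobase, the family reached 467 ± 62.5 CPM per kilobase in the hippocampus and 65.2 ± 5.71 in the cerebellum.

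**Figure D1:**
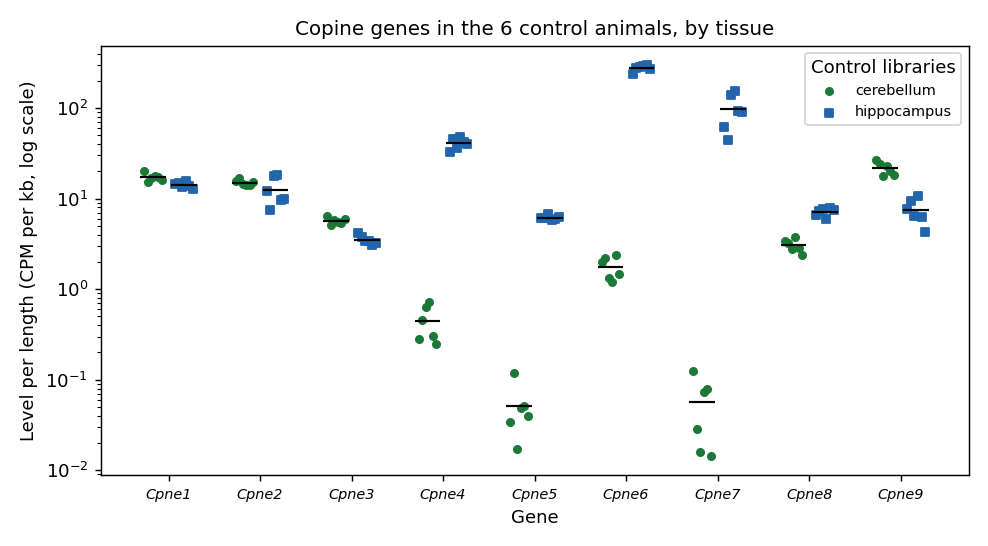
Level of each copine gene per kilobase of exon (CPM per kb, log axis) in the 6 control libraries of the cerebellum (circles) and of the hippocampus (squares), with black lines at the means. *Cpne4*, *Cpne5*, *Cpne6* and *Cpne7* sit far higher in the hippocampus, *Cpne9* and *Cpne3* sit higher in the cerebellum, and *Cpne1* and *Cpne2* overlap between tissues.

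The tissue difference was tested in the 12 control libraries, where 71.9% of 14224 genes tested were called at a false discovery rate (FDR) of 0.05. Of the 9 members 8 were called, 5 higher and 3 lower in the hippocampus, where 35.2% and 36.7% of all genes tested were. Among the 5, *Cpne4*, *Cpne5* and *Cpne7* passed the filter on low counts only through the hippocampal libraries in which they are high, so their calls follow in part from the filter and the count is not read against these shares. *Cpne4* ranged from 0.900 to 2.67 CPM over the cerebellar controls and from 119 to 174 CPM over the hippocampal controls, and within each animal the hippocampal value was 57.05 to 162 times the cerebellar one. Its fitted difference was 6.63 ± 0.23 (log2, SE), a 99.1-fold higher level, given as a description because of the filter. *Cpne6* was 168-fold higher (log2 7.39 ± 0.17, FDR = 2.8e-13) in the hippocampus. *Cpne5* rested on 39 counts over the 6 cerebellar controls, and its mean level was 119 times as high in the hippocampus, with a counting interval of 87.3 to 168 (95%, exact Poisson, counting error only). *Cpne7* rested on 23 counts, and its mean level was 1729 times as high, with an interval of 1152 to 2728. *Cpne8* was 2.50-fold higher (FDR = 1.1e-07).

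*Cpne9* and *Cpne3* went the other way. *Cpne9* lay between 49.4 and 75.1 CPM in the cerebellar controls and between 11.9 and 29.9 CPM in the hippocampal ones, a log2 difference of -1.46 ± 0.18 (FDR = 7.0e-06). *Cpne3*, whose product binds the receptor ERBB2, differed by -0.60 ± 0.08 (log2, FDR = 1.1e-05). *Cpne1* differed by -0.18 ± 0.07 (FDR = 0.022), and its FDR rose to 0.0645, 0.0585 and 0.0659 without control animals Sample_1129, Sample_1190 and Sample_1192 respectively. *Cpne2* was not called (-0.22 ± 0.16, FDR = 0.24). The libraries of the 2 tissues did not overlap for 7 of the 9 members, where they did not for 52.3% of all genes tested. *Cpne4*, *Cpne5* and *Cpne7* are among the 7 and passed the filter only through the hippocampal libraries, so this count is not read against that share.

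*Cpne4* was then followed by genotype in the cerebellum. It was counted at 0.900 (lowest), 1.38 (median) and 2.67 CPM (highest) in controls, at 1.92, 4.02 and 7.91 CPM in cKO+/- mice, and at 6.66, 10.2 and 16.4 CPM in cKO-/- mice. All cKO-/- libraries were above all controls, and the cKO+/- libraries overlapped with both groups. The means were 1.61 ± 0.739, 4.45 ± 2.20 and 10.7 ± 3.47 CPM (SD, n = 6 each). Against controls the fitted level was 2.80-fold in cKO+/- and 6.75-fold in cKO-/- mice. Per allele lost it was 1.37 ± 0.17 higher (log2, SE), which ranked 31 of 14027 genes from the highest. These values rest on 26 to 75 counts per control library and 183 to 489 per cKO-/- library. Even so, cerebellar *Cpne4* stayed low beside its hippocampal level, from 1.08% of the hippocampal control mean in control mice to 7.22% in cKO-/- mice.

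**Figure D2:**
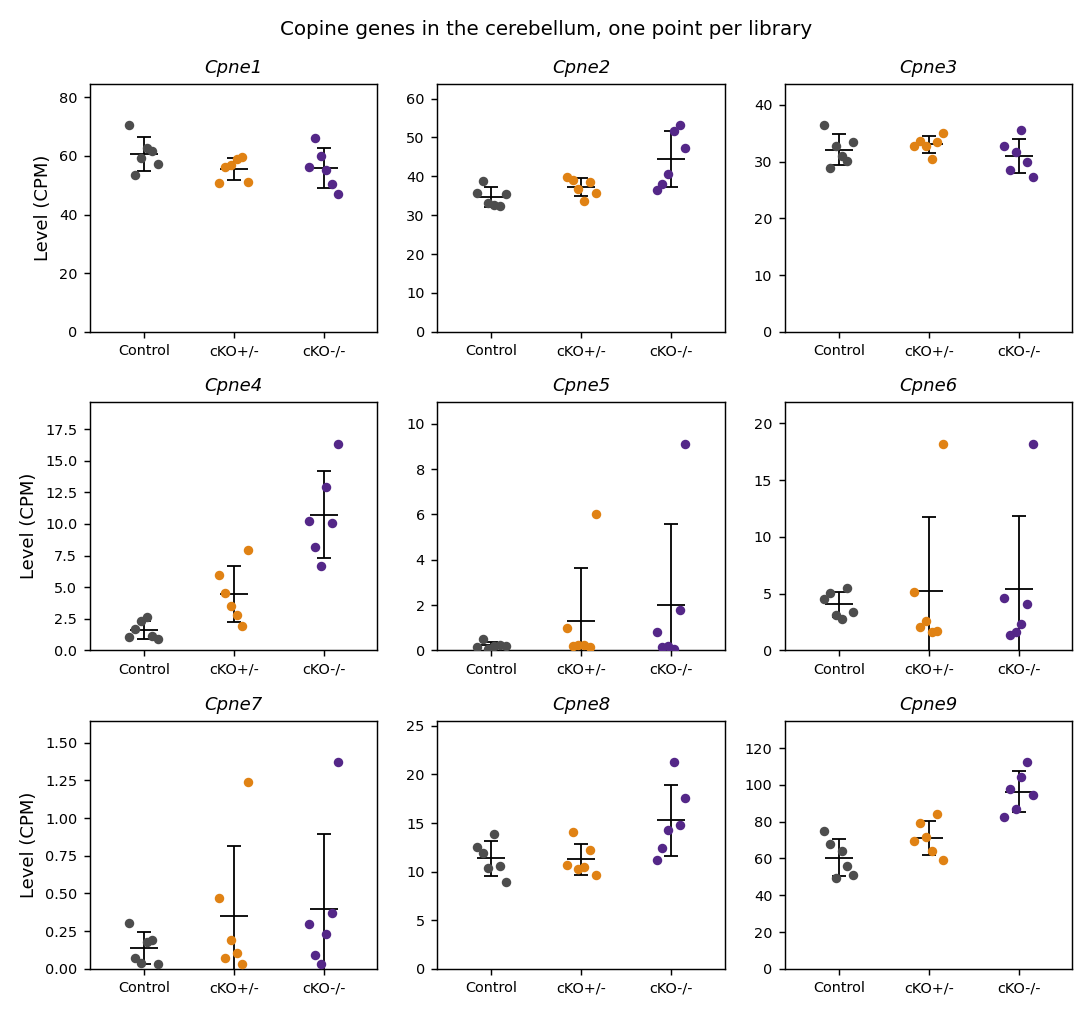
Level (CPM, linear axes from 0) of each copine gene in the 18 cerebellar libraries, by genotype, with 1 point per library and black bars for the mean and SD (lower bars that would pass below 0 end at the axis). The mean of *Cpne4* is higher with each allele lost, *Cpne9* is higher in every cKO-/- library than in every control, and *Cpne5*, *Cpne6* and *Cpne7* are high in the same 2 conditional knockout libraries.

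In bulk tissue a larger number of cells of a type and more RNA per cell cannot be told apart, so markers of other regions were set beside *Cpne4*. Since *Cpne4* is abundant in the hippocampus, markers of that region were examined first. Over 8 hippocampal genes the summed level in the cerebellum ranged from 84.7 to 125 CPM in controls, from 121 to 136 CPM in cKO+/- mice and from 134 to 155 CPM in cKO-/- mice, so it moved with the *Cpne4* level, and its part in that level was not tested. The list's genes behaved differently from each other. *Neurod6* had a median of 8.27 CPM in controls and 10.3 CPM in cKO-/- mice, and *Tdo2*, a tryptophan-degrading enzyme, had medians of 7.28 and 30.2 CPM. The sum had medians of 116 and 146 CPM, so much of its rise was that of *Tdo2*. In hippocampal controls the *Tdo2* median was 9.60 CPM, below its cerebellar cKO-/- median, so its rise does not mark hippocampal tissue. *Tdo2* was also called higher in the hippocampus (0.42, log2 per allele lost, FDR = 0.023). *Neurod6*, *Wfs1* and *Tdo2* were called higher, and *Prox1* and *Bok* were not called.

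Markers of most other cell types moved with *Cpne4* as well. Over the 18 cerebellar libraries, which share genotype, its log2 level had correlations of 0.75 with the microglia score, 0.69 with those of endothelial and meningeal cells and of Bergmann glia and astrocytes, 0.66 with oligodendrocytes, 0.65 with thalamus, 0.59 with midbrain and -0.69 with granule cells. Summed microglia markers were 63.0 to 70.4 CPM in controls and 64.2 to 105 CPM in cKO-/- mice. Summed granule cell markers were 6043 to 7024 CPM in controls, 4001 to 7780 CPM in cKO+/- mice and 3534 to 7489 CPM in cKO-/- mice, with the lowest values in animals Sample_1385, Sample_1433, Sample_1371 and Sample_1379. In cKO-/- animals Sample_1160 and Sample_1219 they were 7489 and 6941 CPM, no lower than in controls, with *Cpne4* at 8.20 and 6.66 CPM. The part of these cell types in the *Cpne4* level was not tested. Midbrain markers summed over 10 genes were at 26.6 to 29.8 CPM in controls, 21.7 to 78.0 CPM in cKO+/- mice and 22.8 to 97.8 CPM in cKO-/- mice, with *Gata3* at 0 in all controls and above 0 in some library of each other genotype. The cKO-/- animals Sample_1160, Sample_1219 and Sample_1371 had 23.6, 25.2 and 22.8 CPM of midbrain markers, no more than the controls, and *Cpne4* was at 12.9 CPM in the last of them. Without the 3 libraries with a midbrain score above 0, the *Cpne4* difference was 1.31 (log2 per allele lost), and with midbrain, brainstem and choroid plexus scores as covariates it was 1.14. Animal numbers moved with *Cpne4* too. Among cKO+/- mice, *Cpne4* was 2.74 ± 0.779 CPM in the 3 animals within the range Sample_1120 to Sample_1219 and 6.15 ± 1.68 CPM in the 3 outside it. Among cKO-/- mice it was 8.20 and 6.66 CPM in the 2 animals within the range and 12.4 ± 2.95 CPM in the 4 outside it. Restricted to animals Sample_1120 to Sample_1219 (6 controls, 3 cKO+/- and 2 cKO-/-), the difference was 1.07, and with the range as a covariate it was 1.04.

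**Figure D3:**
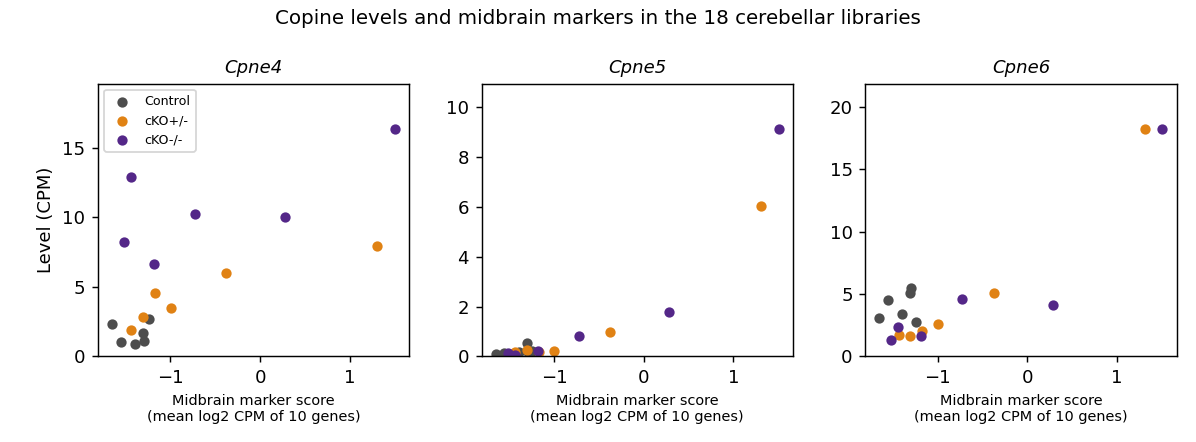
Level (CPM) of *Cpne4*, *Cpne5* and *Cpne6* against the midbrain marker score (mean log2 CPM of 10 genes) in the 18 cerebellar libraries, coloured by genotype. *Cpne5* is near 0 except in libraries with a raised score, *Cpne6* is highest in the 2 libraries with the highest score, and *Cpne4* is above the controls also in 2 cKO-/- libraries whose score lies among those of the controls.

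Among the paralogs of *Cpne4*, *Cpne9* and *Cpne2* rose in the cerebellum with each *Pogz* allele lost, 2 of the 6 that passed the filter on low counts, where 13.7% of all genes tested were called, 7.11% higher and 6.55% lower. *Cpne5* and *Cpne7* did not pass it. *Cpne9*, the leading copine of the cerebellum, was counted at 49.4 (lowest), 59.8 (median) and 75.1 CPM (highest) in controls, at 58.9, 70.6 and 83.9 CPM in cKO+/- mice and at 82.6, 96.2 and 112 CPM in cKO-/- mice. The cKO+/- libraries overlapped with both groups, and all cKO-/- libraries were above all controls, as for 2.58% of genes tested, while 2.1% lay below all controls and no copine did. The change was 0.34 ± 0.05 (log2 per allele lost, FDR = 0.00048), or 1.60-fold between cKO-/- and control mice. *Cpne9* was at a similar level within the range Sample_1120 to Sample_1219 (97.7 and 86.7 CPM in the 2 cKO-/- mice) and outside it (98.4 ± 12.8 CPM, n = 4). With only animals Sample_1120 to Sample_1219, its change was 0.30 and its FDR 0.0558.

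*Cpne2* was counted at 32.3 (lowest), 34.3 (median) and 38.7 CPM (highest) in controls, at 33.5, 37.6 and 39.9 CPM in cKO+/- mice and at 36.5, 43.9 and 53.2 CPM in cKO-/- mice. The groups overlapped, and the upper cKO-/- values came from animals Sample_1371, Sample_1379 and Sample_1385 (51.8, 53.2 and 47.2 CPM), whose summed granule cell markers were 4188, 4723 and 3534 CPM, below all controls. The *Cpne2* level had correlations over the 18 libraries of -0.66 with the granule cell score and 0.59 with the scores of Purkinje cells and of endothelial and meningeal cells, whose part in it was not tested. The change was 0.19 ± 0.05 (log2 per allele lost, FDR = 0.013). It was no longer called without the libraries with a midbrain score above 0 (0.12, FDR = 0.0968), with a covariate for animals numbered outside the controls' range (0.13, FDR = 0.25) or within that range (0.09, FDR = 0.32). *Cpne8* had a control median of 11.2 CPM and a cKO-/- median of 14.5 CPM, and its change of 0.22 ± 0.08 missed the threshold (FDR = 0.0588). The *Cpne8* level had correlations of 0.77 with the Purkinje cell score and -0.55 with the granule cell score. The part of these cell types in it was not tested. *Cpne1* and *Cpne3*, the broadly expressed members, differed by -0.06 ± 0.04 (FDR = 0.34) and -0.02 ± 0.04 (FDR = 0.72).

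*Cpne5*, *Cpne6* and *Cpne7*, the other members far higher in hippocampal than in cerebellar controls, had a different cerebellar pattern from that of *Cpne4*. *Cpne6* was counted at 2.74 (lowest), 3.94 (median) and 5.47 CPM (highest) in controls, at 1.65, 2.32 and 18.2 CPM in cKO+/- mice and at 1.34, 3.23 and 18.2 CPM in cKO-/- mice. Both highest values came from cKO+/- animal Sample_1433 and cKO-/- animal Sample_1385, the 2 libraries with the highest midbrain scores. *Cpne5* reached 6.04 and 9.13 CPM in these libraries, against 0.0759 to 0.519 CPM in controls, and *Cpne7* reached 1.24 and 1.37 CPM, against 0.0346 to 0.302 CPM. In cKO-/- animal Sample_1371, *Cpne5*, *Cpne6* and *Cpne7* were at 0.0459, 2.34 and 0.229 CPM while *Cpne4* was at 12.9 CPM. The fitted change of *Cpne6* was 0.27 ± 0.33 (log2 per allele lost, FDR = 0.62). Its sign turned without the 3 libraries with a midbrain score above 0 (-0.46, FDR = 0.0901), with the 3 region scores as covariates (-0.60, FDR = 0.019), with a covariate for animals numbered outside the controls' range (-0.65, FDR = 0.36) and within that range (-0.77, FDR = 0.0176). The part of midbrain tissue in these levels was not tested.

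In the hippocampus *Cpne4* was counted at 119 (lowest), 150 (median) and 174 CPM (highest) in controls, at 90.8, 130 and 161 CPM in cKO+/- mice and at 142, 143, 150, 153 and 155 CPM in the 5 cKO-/- mice. All 3 genotypes overlapped, and the library of animal Sample_1160 (136 CPM) lay among them. The difference was -0.01 ± 0.06 (log2 per allele lost, SE). The same animals thus gave a cerebellar difference of 1.37 and a hippocampal one near 0, and the difference between the 2 was -1.38 ± 0.17 (hippocampus minus cerebellum). These are relative changes. Cerebellar means went from 1.61 CPM in controls to 10.7 CPM in cKO-/- mice, and hippocampal controls had an SD of 21.0 CPM. An equal rise in CPM would lie within that hippocampal spread. Within animals, hippocampal *Cpne4* was 57.05 to 162 times the cerebellar level in controls, 16.6 to 66.3 times in cKO+/- mice and 9.17 to 21.4 times in the 5 cKO-/- mice.

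Other members changed in the hippocampus. *Cpne8* rose and *Cpne5* fell, 2 of the 8 paralogs tested, where 4.44% of all genes tested were called, 2.09% higher and 2.35% lower. *Cpne5* was counted at 25.2 (lowest), 26.7 (median) and 29.2 CPM (highest) in controls and at 23.9, 25.8 and 29.7 CPM in cKO+/- mice. In the cKO-/- mice it was at 17.7, 19.2, 20.4, 20.5 and 21.8 CPM, below every control, as for 2.04% of genes tested, and at 23.1 CPM in animal Sample_1160, also below every control. It fell (-0.20 ± 0.04, log2 per allele lost, FDR = 0.012), and the cKO-/- level was 0.744-fold that of controls. *Cpne8* was counted at 22.3 (lowest), 27.5 (median) and 29.7 CPM (highest) in controls and at 24.2, 28.2 and 30.0 CPM in cKO+/- mice. In the cKO-/- mice it was at 30.8, 34.4, 35.8, 35.9 and 36.8 CPM, above every control, as for 1.5% of genes tested, and at 34.3 CPM in animal Sample_1160. It rose by 0.18 ± 0.04 (log2 per allele lost, FDR = 0.0085), or 1.30-fold between cKO-/- and control mice. For both genes the cKO+/- libraries overlapped widely with controls, with fitted levels of 0.979-fold (*Cpne5*) and 1.04-fold (*Cpne8*).

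Both calls were lost when a covariate marked animals numbered outside the controls' range (*Cpne5* -0.18, FDR = 0.32, and *Cpne8* 0.19, FDR = 0.16) and within that range (-0.10, FDR = 0.79, and 0.12, FDR = 0.71), which left 1 hippocampal cKO-/- library. That library, of animal Sample_1219, held 21.8 CPM of *Cpne5* and 34.4 CPM of *Cpne8*, outside the controls in the same directions.

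**Figure D4:**
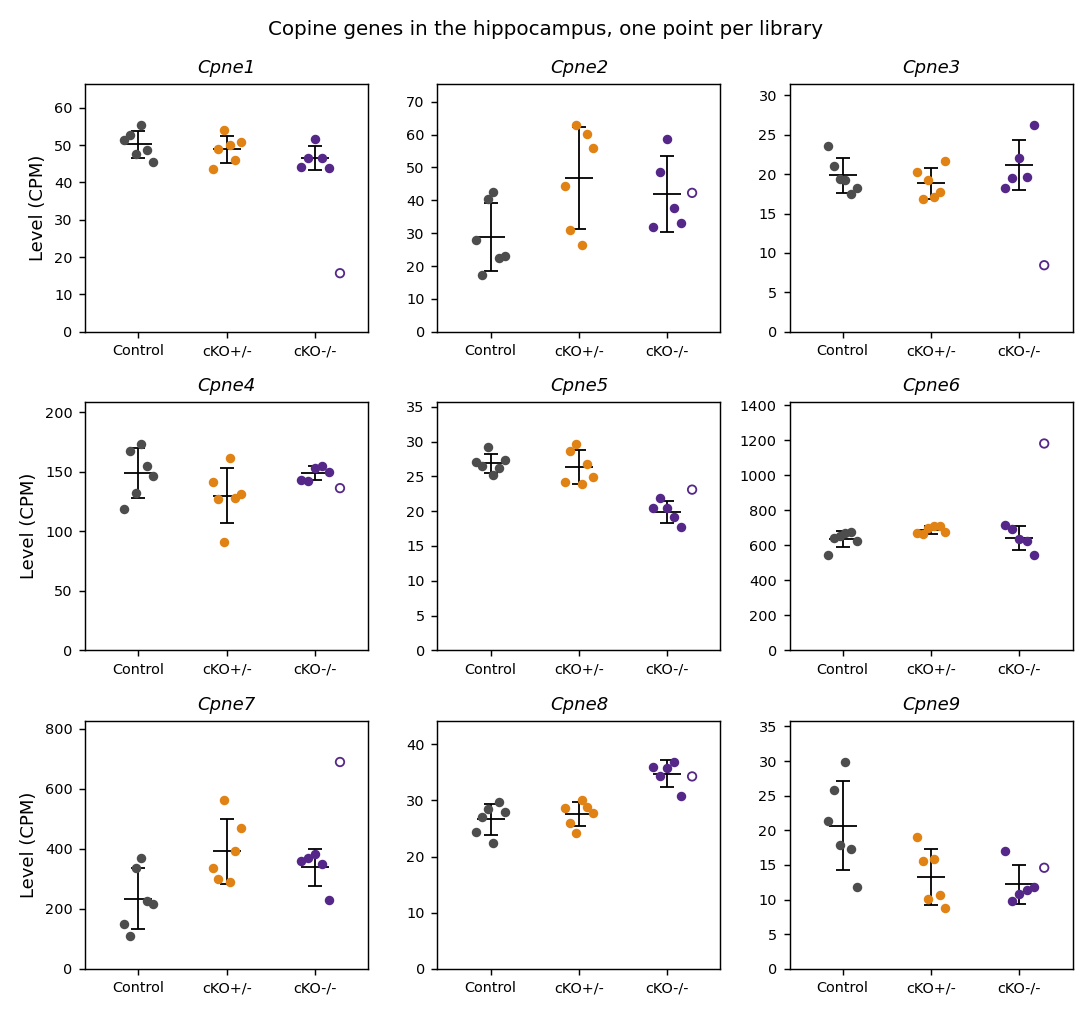
Level (CPM, linear axes from 0) of each copine gene in the hippocampal libraries, by genotype, with 1 point per library and black bars for the mean and SD. The open circle is cKO-/- animal Sample_1160, which is not in the mean, SD or fit. *Cpne4* overlaps across genotypes, *Cpne5* is lower and *Cpne8* higher in every cKO-/- library than in every control, and *Cpne2* and *Cpne7* spread widely within genotypes.

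*Cpne9* was counted in the hippocampus at 11.9 (lowest), 19.6 (median) and 29.9 CPM (highest) in controls, at 8.82, 13.1 and 19.1 CPM in cKO+/- mice and at 9.87, 10.8, 11.4, 11.8 and 17.01 CPM in cKO-/- mice. The groups overlapped, and the change of -0.38 ± 0.12 (log2 per allele lost) missed the threshold (FDR = 0.0714). It was called by DESeq2 (-0.38, FDR = 0.0225) and without animal Sample_936 (-0.47, FDR = 0.0205) or animal Sample_1192 (-0.44, FDR = 0.0446).

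*Cpne2* and *Cpne7* varied widely among hippocampal libraries of 1 genotype. *Cpne7* was counted at 108 (lowest), 220 (median) and 370 CPM (highest) in controls, at 290, 364 and 563 CPM in cKO+/- mice and at 230, 350, 359, 368 and 383 CPM in cKO-/- mice. *Cpne2* was counted at 17.3, 25.5 and 42.6 CPM in controls, at 26.6, 50.2 and 62.9 CPM in cKO+/- mice and at 32.0, 33.0, 37.5, 48.6 and 58.5 CPM in cKO-/- mice. Control animals Sample_1170 and Sample_1172 were high and control animal Sample_1155 was lowest for both genes, whose log2 levels had a correlation of 0.86 over the 17 libraries and 0.79 after the genotype means were removed (a description, as libraries share tissue makeup). Both also had negative correlations with the hippocampal label score (-0.87 for *Cpne2* and -0.84 for *Cpne7*). Summed, those label genes were at 792 to 1161 CPM in controls, 642 to 913 CPM in cKO+/- mice and 747 to 796 CPM in cKO-/- mice, Sample_1160 included, and their part in the *Cpne2* and *Cpne7* levels was not tested. With genotype as a factor their cKO+/- levels were 1.62-fold (*Cpne2*) and 1.69-fold (*Cpne7*) those of controls, and their cKO-/- levels 1.46-fold and 1.48-fold. Per allele lost the changes were 0.29 ± 0.15 (*Cpne2*, FDR = 0.30) and 0.30 ± 0.16 (*Cpne7*, FDR = 0.29). *Cpne6*, the most abundant member, was at 546 to 678 CPM in controls, 661 to 712 CPM in cKO+/- mice and 543 to 718 CPM in the 5 cKO-/- mice, with a change of 0.01 ± 0.03 (FDR = 0.88). *Cpne1* and *Cpne3* differed by -0.05 ± 0.03 (FDR = 0.39) and 0.05 ± 0.05 (FDR = 0.65). In animal Sample_1160 *Cpne6* and *Cpne7* were at 1181 and 689 CPM, above all other libraries, and *Cpne1* and *Cpne3* at 15.7 and 8.45 CPM, below all others.

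Whether a paralog responded differently in the 2 tissues was tested with the product of tissue and allele number over 35 libraries. *Cpne9* was the 1 member called of the 6 tested, where 1.49% of all genes tested were called (203 genes, and 338 with the animal as a block). Its change per allele lost was 0.73 lower in the hippocampus than in the cerebellum (-0.73 ± 0.13, log2, FDR = 0.0015, and 0.0049 with the animal as a block). Within animals, hippocampal *Cpne9* was 0.233 to 0.467 times its cerebellar level in controls, 0.127 to 0.275 times in cKO+/- mice and 0.102 to 0.206 times in the 5 cKO-/- mice. *Cpne8* had similar values in both tissues (0.22 and 0.18), with a difference of -0.04 ± 0.09 (FDR = 0.88). The differences of *Cpne1*, *Cpne2*, *Cpne3* and *Cpne6* were 0.00 ± 0.05, 0.09 ± 0.16, 0.06 ± 0.06 and -0.26 ± 0.33, with FDR from 0.74 to 0.998.

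**Figure D5:**
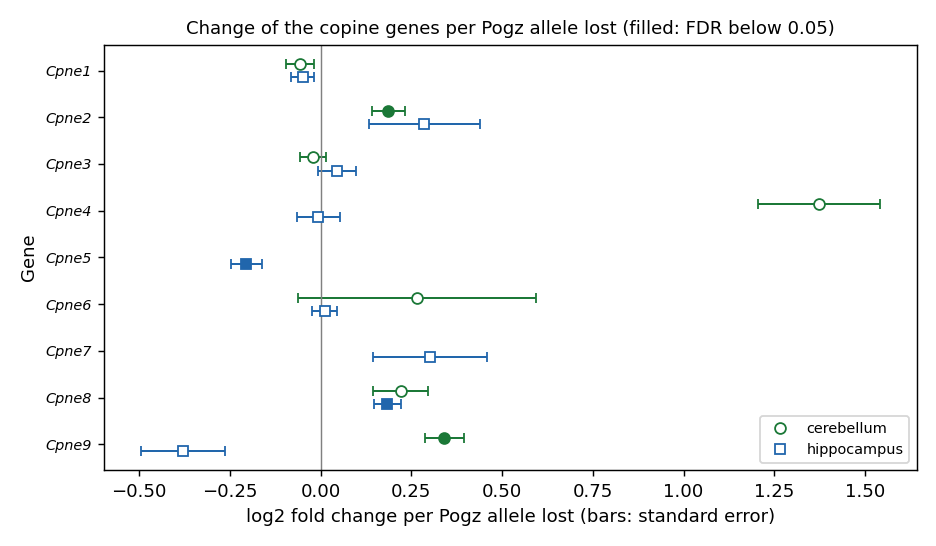
Change of each copine gene per *Pogz* allele lost (log2 fold change, x axis, with SE bars) in the cerebellum (circles) and hippocampus (squares). Filled symbols passed an FDR of 0.05, *Cpne4* was not tested, and *Cpne5* and *Cpne7* were below the filter in the cerebellum. *Cpne4* stands at 1.37 in the cerebellum and -0.01 in the hippocampus, and *Cpne9* lies on opposite sides of 0.

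Taken per kilobase, *Cpne4* made up 0.684 ± 0.326% of the family's level in the cerebellum of controls, 1.72 ± 0.830% in cKO+/- mice and 3.41 ± 0.904% in cKO-/- mice. In the hippocampus it made up 8.79 ± 1.27%, 6.50 ± 1.51% and 7.98 ± 1.101% (n = 6, 6 and 5). The family's level in the cerebellum was 65.2 ± 5.71, 70.4 ± 3.79 and 85.4 ± 7.90 CPM per kilobase in the 3 genotypes, and the largest part of it was *Cpne9* (21.8 ± 3.64, 25.6 ± 3.36 and 34.7 ± 3.96 CPM per kilobase).

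No member differed between males and females. By edgeR and by DESeq2, 0 of the 7 members tested in the cerebellum and 0 of the 9 in the hippocampus were called, where edgeR called 0.0499% (0.0285% higher in males and 0.0214% lower) and 0.907% of all genes, and 0 members had an unadjusted p under 0.05. For *Cpne4* the male minus female difference was -0.08 ± 0.27 (log2) in the cerebellum (FDR = 0.9999) and 0.06 ± 0.10 in the hippocampus (FDR = 0.82). Cerebellar *Cpne4* was 2.002 ± 0.870 CPM in 3 control females and 1.22 ± 0.393 CPM in 3 control males, and 11.5 ± 4.28 CPM in 3 cKO-/- females and 9.95 ± 3.15 CPM in 3 cKO-/- males.

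Other calcium-dependent membrane proteins were counted for comparison. Of 16 synaptotagmins tested in the cerebellum, the calcium sensors of vesicle release and their relatives, 1 rose and 1 fell, a share near the 13.7% of all genes called. *Syt16* went from 3.13 ± 0.667 to 6.30 ± 1.68 CPM (0.52 ± 0.10, FDR = 0.0036), and *Syt6* from 14.6 ± 2.61 to 7.38 ± 3.21 CPM (-0.49 ± 0.12, FDR = 0.012), between control and cKO-/- mice. Like *Cpne4*, *Syt16* was more abundant in the hippocampal controls (72.3 ± 7.58 CPM), was at 72.9 ± 5.92 CPM in hippocampal cKO-/- mice, and was called for a difference between tissues in the allele effect (-0.52 ± 0.10, FDR = 0.0067). In the hippocampus 1 synaptotagmin of 16 fell by edgeR, *Syt7* (-0.21 ± 0.05, FDR = 0.016), where 4.44% of all genes were called, 2.35% lower. Of the 16, 6 had an unadjusted p under 0.05, and DESeq2 called 4. Of 10 annexins tested in the cerebellum, which also bind membranes when calcium is present, 3 rose and 0 fell by edgeR, where 7.11% and 6.55% of all genes did (5 had an unadjusted p under 0.05, and DESeq2 called 4). Markers of microglia (2 of 5) and of endothelial and meningeal cells (2 of 7) also rose there, with median changes of 0.16 and 0.24, and their part in the annexin values was not tested. The annexins were *Anxa1* (0.64 ± 0.14, FDR = 0.0082), *Anxa8* (0.69 ± 0.18, FDR = 0.016) and *Anxa4* (0.21, FDR = 0.036), and of 9 in the hippocampus *Anxa11* fell (-0.33 ± 0.08, FDR = 0.025).

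Of 21 other C2 domain proteins, 2 fell in the cerebellum, *Esyt1*, an endoplasmic reticulum tether (-0.18 ± 0.06, FDR = 0.0426), and *Otof*, otoferlin (-0.40 ± 0.13, FDR = 0.0471). There 13.7% of all genes were called, 6.55% lower, and 6 of the 21 had an unadjusted p under 0.05 (DESeq2 called 2). In the hippocampus, where 4.44% of all genes were called, 0 of the 21 were called by edgeR and DESeq2 (2 had an unadjusted p under 0.05). Of 11 genes tied to copines in spines and trafficking, among them *Rac1* and *Bdnf*, 0 were called by edgeR in either tissue, with 2 at an unadjusted p under 0.05 in each, and DESeq2 called 0 in the cerebellum and 1 in the hippocampus. The medians of the 4 lists ran from -0.01 to 0.14 in the cerebellum and from -0.04 to 0.09 in the hippocampus (log2 per allele lost), beside 0.00 for all genes tested in each.

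The genes whose cerebellar log2 level followed that of *Cpne4* most closely over the 18 libraries were *Agmo* (Pearson r = 0.96), *A730017C20Rik* (0.96), *Klhl1* (0.95), *Snrpn* (0.95) and *Tspan12* (0.94). These libraries share genotype, and all 5 genes had higher mean levels in cKO-/- mice, such as *Agmo*, at 4.95 ± 1.09 CPM in controls and 13.0 ± 1.47 CPM in cKO-/- mice. Once genotype means were removed, the closest were *Sox8* (0.82), *Cdkl2* (0.82), *Mcf2* (0.81), *Ak5* (0.81) and *Pla2g5* (0.81), none of which was among the first 5. Within the family, the deviations of *Cpne4* from its genotype means had their highest cerebellar correlations with *Cpne7* (0.61) and *Cpne6* (0.56), and *Cpne5* with *Cpne6* had 0.91. *Cpne8* and *Cpne9* had 0.65 and *Cpne2* and *Cpne8* had 0.60. All of these are descriptions over libraries that share tissue makeup. Around *Cpne4* on chromosome 9, 12 genes within 1 Mb were tested in the cerebellum, and *Acpp*, an acid phosphatase, was higher (0.76 ± 0.20, FDR = 0.020), while 11 were not called. Around *Cpne9*, 31 were tested, of which 1 was higher and 3 were lower. Of all genes tested in the cerebellum, 7.11% were called higher and 6.55% lower.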

How the data were processed

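Poly(A) RNA from adult cerebellum and hippocampus was sequenced as 43-base paired ends. The deposited values are raw counts per gene, 1 table per tissue, which the authors made with STAR (version 250a in the submitters' processing notes). The notes name mm9, but the gene coordinates in the tables match GRCm38. Strand and multimapping settings are not given in the sources used here. Libraries held 17609321 to 45544188 counts.

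Counts were tested with edgeR 4.0.16 (quasi-likelihood, TMM scaling, R 4.3.3) on genes with more than 1 CPM in 6 or more libraries. Sex and intact allele number entered the model, and changes are given per allele lost. The FDR is Benjamini-Hochberg adjusted over all genes tested, with a threshold of 0.05. CPM were scaled by TMM within each tissue, and joint scaling was used only for the tissue contrast in controls and the interaction. Hippocampal animal Sample_1160 was left out of fits but kept in filtering and scaling. Log2 CPM in correlations used a prior count of 0.5. Counting intervals are exact Poisson (95%), and limits of detection are 3 counts.

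Both tissues came from the same animals by their numbers. Over 17 animals the deviations of both tissues from their genotype means had a median correlation of 0.26 (-0.13 to 0.45), 15 of them over 0.1.

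The members and gene lists were chosen with earlier results of these data known. The named genes were the members, *Pogz*, overlapping genes, the 5 genes closest to *Cpne4* by each correlation and, per comparison list, at most 4 called genes (the 2 rising and 2 falling with the smallest p). Single marker genes, *Anxa4* and *Acpp* were named after their values were seen. DESeq2 1.42.0, other scalings, filters, covariates and left-out animals were tried as alternatives, and models were tested on simulated data. Promoters came from RefSeq, with no entry used for *Cpne3*, *Cpne6* and *Cpne7*. Results for some marker genes are not reported here.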

Additional observations from a re-analysis of the deposited data

Results flagged for a closer look

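The hippocampal *Cpne7* level of cKO-/- animal Sample_1385 was 230 CPM, apart from the other 4 libraries of that genotype (350 to 383 CPM). On the log2 CPM scale its gap to the nearest library was 0.823 of the group's range, past Dixon's critical value for 5 samples. Of 54 groups examined 1 was flagged, and chance flags about 1 in 20. The same library was high in choroid plexus markers (5080 CPM), and their part in this value was not tested.

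The response of *Cpne9* to *Pogz* loss differed between the tissues, by -0.73 (log2 per allele lost, hippocampus minus cerebellum, FDR = 0.0015, edgeR interaction term). It rose in the cerebellum (0.34), and its hippocampal value was -0.38 (FDR = 0.0714). The ratio of hippocampal to cerebellar *Cpne9* was 0.233 to 0.467 in controls and 0.102 to 0.206 in the 5 cKO-/- animals.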

How the results depend on the processing

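The paralogs called per allele lost went from 2 to 1 in the cerebellum with a covariate for animals numbered outside the controls' range, without the libraries with a midbrain score above 0, and with only animals Sample_1120 to Sample_1219. The 1 called was *Cpne9* in the first 2 and *Cpne6*, lower, with only those animals, where *Cpne9* and *Cpne2* were both lost. With the region scores as covariates *Cpne6* was called lower beside *Cpne2* and *Cpne9*. Paralogs called went from 2 to 0 in the hippocampus with that covariate and with only animals Sample_1120 to Sample_1219 (edgeR, 3 at an unadjusted p under 0.05 in each). Leaving out the midbrain libraries and keeping only animals Sample_1120 to Sample_1219, which both use fewer animals, were chosen after seeing the data. The other 45 alternative counts of members called and all 94 with an animal left out stayed within 1.5 times. The animal block changed no member's call. *Cpne4* ranged from 1.04 to 1.46 in the cerebellum and from -0.11 to 0.03 in the hippocampus.

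Genes called over the whole table went from 1916 in the cerebellum to 915 (region scores), 308 (range), 796 (without midbrain libraries) and 277 (animals Sample_1120 to Sample_1219). In the hippocampus they went from 636 to 1056 (DESeq2), 68 (range), 246 (all 18 libraries) and 27 (animals Sample_1120 to Sample_1219). For the interaction they went from 203 to 337 (DESeq2), 338 (animal block) and 10 (range). For sex they went from 7 to 17 (DESeq2) in the cerebellum, and in the hippocampus from 130 to 625 (DESeq2), 15 (region scores), 6 (all 18 libraries) and 322 (animals Sample_1120 to Sample_1219).

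Signs turned as follows, and the cause was not tested. Cerebellar *Cpne6* was -0.60 (region scores), -0.65 (range), -0.46 (without midbrain libraries) and -0.77 (animals Sample_1120 to Sample_1219). Cerebellar *Cpne1* was 0.0044 (range) and 0.0079 (animals Sample_1120 to Sample_1219), and *Cpne3* 0.0053 (without midbrain libraries). Hippocampal *Cpne3* was -0.029 (all 18 libraries) and -0.046 (animals Sample_1120 to Sample_1219). The interaction of *Cpne1* was -0.00062 (DESeq2), -0.0019 (RLE), -0.0028 (no sex term), -0.052 (range) and -0.089 (all 36 libraries), of *Cpne3* -0.014 (all 36), of *Cpne6* 0.65 and of *Cpne8* 0.0088 (range). With each animal left out in turn, signs turned within cerebellar *Cpne6* (-0.255 to 0.395), hippocampal *Cpne3* (-0.00766 to 0.0766) and *Cpne6* (-0.00749 to 0.0418), and the interactions of *Cpne1* (-0.0173 to 0.0261), *Cpne2* (-0.0241 to 0.181), *Cpne3* (-0.0075 to 0.0974), *Cpne6* (-0.401 to 0.280) and *Cpne8* (-0.0945 to 0.0257). *Cpne8* in the cerebellum was called by DESeq2 (FDR = 0.0398) and without animal Sample_936, Sample_1160 or Sample_1172.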
